A study of Bos taurus with 8 samples.

Results

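Small RNAs that carry no miRNA name and are 24 or more bases long were examined in testis of Chinese Red Steppes cattle. The deposited small RNA table lists 3232 sequences, of which 1496 have no bovine, human or mouse miRNA name at the start of their entry, and 639 of these are 24 or more bases long. The 125 of them with 10 or more counts over both libraries together are described here. They were chosen by name, length and their measured counts, so their summed abundance is a description and not a result. Each entry is an arm of a precursor hairpin predicted by the authors, and its name gives the chromosome, a running number and the arm. Names ending in mature are called the main arm below, so that they are not taken for the mature pool, and names ending in star are called the star arm.

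The mature pool was made from testis of 3 bulls slaughtered at 24 months and the immature pool from testis of 3 calves castrated at 1 day after birth, with 1 small RNA library per pool. Age cannot be told apart from how the tissue was taken, and with 1 library per age no difference between the pools has a replicate check, so none was tested. Messenger RNA was sequenced in 6 further libraries, 1 per animal, of the same groups. In whole tissue, fewer cells of a type and less RNA per cell cannot be told apart.

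PIWI-interacting RNAs (piRNAs) are small RNAs of animal germ cells that guide PIWI proteins. They are longer than miRNAs, they are cut from single-stranded transcripts without the enzyme Dicer, and most of them begin with uridine (U). In the ping-pong cycle, a loop in which 1 piRNA directs the cut that makes the next, the partners overlap by 10 bases at their 5′ ends and the second carries adenosine (A) at position 10. In the adult mammalian testis the most abundant piRNAs are made in pachytene spermatocytes, and an earlier set in fetal male germ cells silences transposons. None of these features alone makes a sequence a piRNA, and the 125 sequences are called by their length and first base only.

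The sequences with the most counts are shown as a set seen almost only in the mature pool and a set present in both pools. They are printed 5′ to 3′ with T for U, and capitals mark the first and the tenth base. The first set holds 6 different sequences, of which the one shared by 3 names on chromosome 14 is printed once.
chr2_1856_mature: TtgactctgCcctacaactgaagga
chr23_35843_star: TcactactcAagataaaactcctct
chr21_32348_star: TttccaaagCtgagctaaagagat
chr13_17957_mature: TacctgtagTgcttgtgttgggttt
chr14_20444_mature: TgggatggaGtttagagatgagttt
chr7_9882_mature: GctctgtggAcaagaagtgtcttt
The second set holds the sequences with the most counts in the immature pool, and its leading pair are the arms of a single precursor on chromosome 10.
chr10_13752_mature: TcaaggaaaGagtactgaagtggtt
chr10_13752_star: TcatctttcAgtgtcctatctttttgc
chr1_785_mature: AaagcaggaTttagactacaatat
chr2_1935_mature: TaaggagtaTgcagtcaatgaggtt
chr18_27210_star: TcagatctcTccaccatgacctgccc
chr19_29508_star: TggaccaccAgggaattcccattgt
chr21_30343_mature: AtcgatgatGactcccacaaatgca
chr15_21119_mature: GcgaagattAtgagatatgagggca
chr29_41290_mature: GtagatataAtaatggtcatcggaa

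The table sums to 1021222 counts in the mature pool and 4153017 in the immature pool, and 95.1% of the counts in the mature pool and 99.1% of those in the immature pool belong to bovine miRNAs. These totals are what the table holds and not the depth of the libraries, so levels below are counts per 1000000 table counts (CPM). Known markers of germ cells and of immature Sertoli cells followed the labels. bta-miR-34c and bta-miR-449a, miRNAs of meiotic and later germ cells in mice, were at 54983 and 7632 CPM in the mature pool, against 181 and 4.57 CPM in the immature pool. PRM1, the protamine of sperm chromatin, was at 4755 to 8574 CPM in the mature mRNA libraries and at 2.51 to 3.41 CPM in the immature ones, while AMH of immature Sertoli cells was at 7.44 to 14.5 CPM in mature and at 2153 to 3404 CPM in immature libraries. Of blood, the erythroid bta-miR-451 was at 298 CPM in the mature and at 585 CPM in the immature pool, while bta-miR-486, also erythroid, was at 544 CPM in the mature and 410 CPM in the immature pool. HBB was at 0.207 to 0.625 CPM in the mature and at 2.26 to 60.4 CPM in the immature libraries, HBA was at 0.925 CPM or less in all 6, and AHSP was at 3.72 ± 0.782 CPM in the mature and at 1.52 ± 0.546 CPM in the immature libraries (SD, n = 3 each). The leukocyte gene PTPRC was at 5.08 ± 1.46 CPM in the mature and at 31.8 ± 7.30 CPM in the immature libraries (SD, n = 3 each). The skeletal muscle genes ACTA1, MYH7 and CKM were at 0.250 to 1.62 CPM in all 6 libraries. The muscle miRNA bta-miR-1 was at 4987 CPM in the mature and 1723 CPM in the immature pool, bta-miR-133a at 9.79 CPM in the mature and 7.22 CPM in the immature pool, and bta-miR-206 at 14.7 CPM in the mature and 19.7 CPM in the immature pool. The epididymal SPINT4 had 0 mature counts and 1 immature count. CRISP1, also epididymal, had 5 mature and 19 immature counts, with 1.07 CPM in immature library 1. Of the Leydig cell genes, INSL3, STAR and CYP17A1 overlapped between the mature and immature libraries. HSD3B1 did not, with means of 18.7 CPM in the mature and 60.7 CPM in the immature libraries. The part of these cells in the results was not tested.

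The 125 sequences made up a larger share of the mature pool. They held 9176 counts there, or 0.899% (95% Wilson interval 0.880% to 0.917%), and 4366 counts in the immature pool, or 0.105% (0.102% to 0.108%), a ratio of shares of 8.55. For the 14 sequences of 26 or more bases the shares were 0.0488% in the mature and 0.0406% in the immature pool, a ratio of 1.20, and chr10_13752_star held 213 of their 498 mature and 1311 of their 1686 immature counts. These intervals, like all others here, cover counting error only. Without any scaling the mature pool had 2.10 times as many counts of the 125 sequences. Its table total was the smaller, but that total is not the depth of its library. The ratio of the summed levels was 3.69 with TMM factors. With clean read totals derived from the study's mapping shares it was 1.96. The raw count was higher in the mature pool for 97 of the 125 sequences (77.6%) and lower for 25, against 39.1% of all 826 table rows with 10 or more counts. A sequence with 3 or fewer immature counts could reach the minimum of 10 only with more counts in the mature pool. This fixed the raw direction for at least 71 of the 97, so their number is a description only. The raw count of bovine miRNAs was higher in the mature pool for 36 of 368.

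The ratio between the pools was placed on the CPM scale with 1 count added to each pool. By this measure 109 of the 125 sequences were more than 2-fold higher in the mature pool and 1 was more than 2-fold lower. The background over all rows with 10 or more counts was 51.0% higher and 14.0% lower. For members with 7 or fewer immature counts, which are most of the 109, the count minimum and this scale fixed the outcome, as given below. The median log2 ratio of the 125 sequences was 4.23 (4.14 with sequences at 0 counts placed at 3 counts), against 1.02 over all rows. It was 4.60 for 260 unnamed sequences under 24 bases and −0.01 for the bovine miRNAs. For the 304 bovine miRNAs no more abundant than the members it was 0.02. The higher level in the mature pool was thus shared with the shorter unnamed sequences. The size of the ratio rested on the scale. TMM factors gave 93 sequences higher and 8 lower with a median of 3.01, and clean read totals derived from the study's mapping shares gave 84 higher and 18 lower with a median of 2.10. Over all rows, 38.1% were then higher and 34.0% lower with TMM factors, and 33.3% higher and 51.6% lower with derived clean reads. These scalings moved the median of all rows by −1.21 and −2.12, and as a scaling moves every ratio alike, the difference of 3.20 between the medians of the members and of all rows is fixed by construction.

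**Figure D1:**
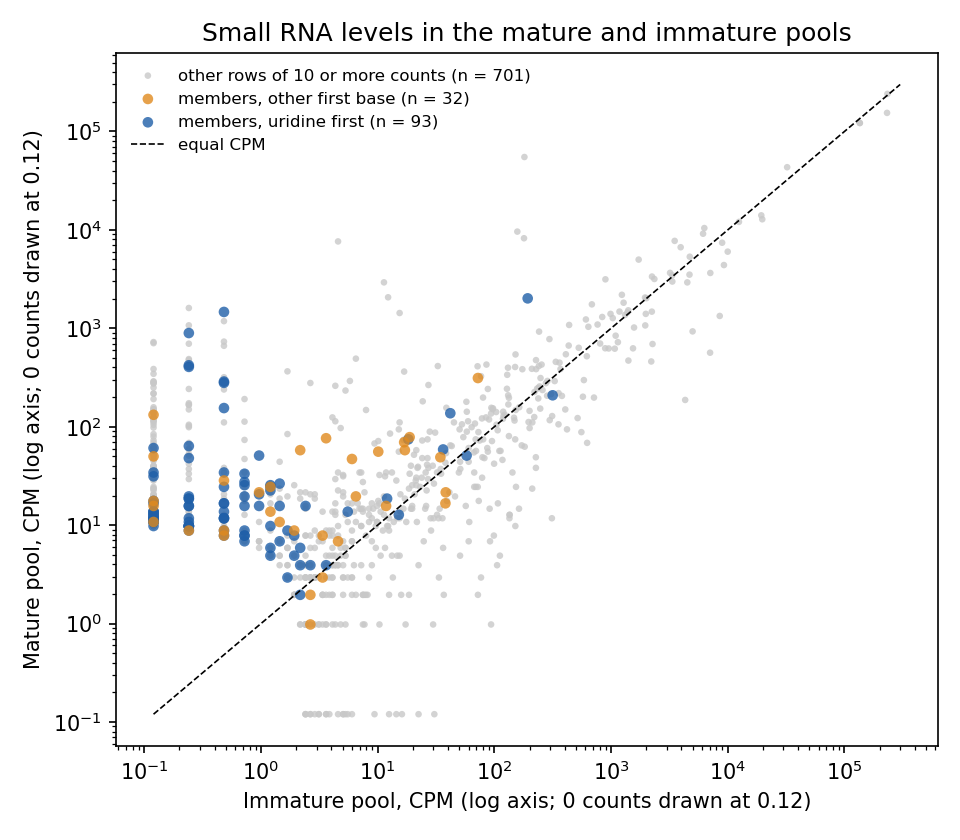
Level of each small RNA in the mature pool (vertical, CPM, log axis) and the immature pool (horizontal, CPM, log axis), 1 point per row with 10 or more counts, with 0 counts drawn at 0.12. Blue points are the 93 sequences of 24 or more bases that begin with uridine, orange points the 32 with another first base, and grey points other rows. Most coloured points lie above the dashed line of equal CPM, with a column of them at 0 to 2 immature counts on the left.

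**Figure D2:**
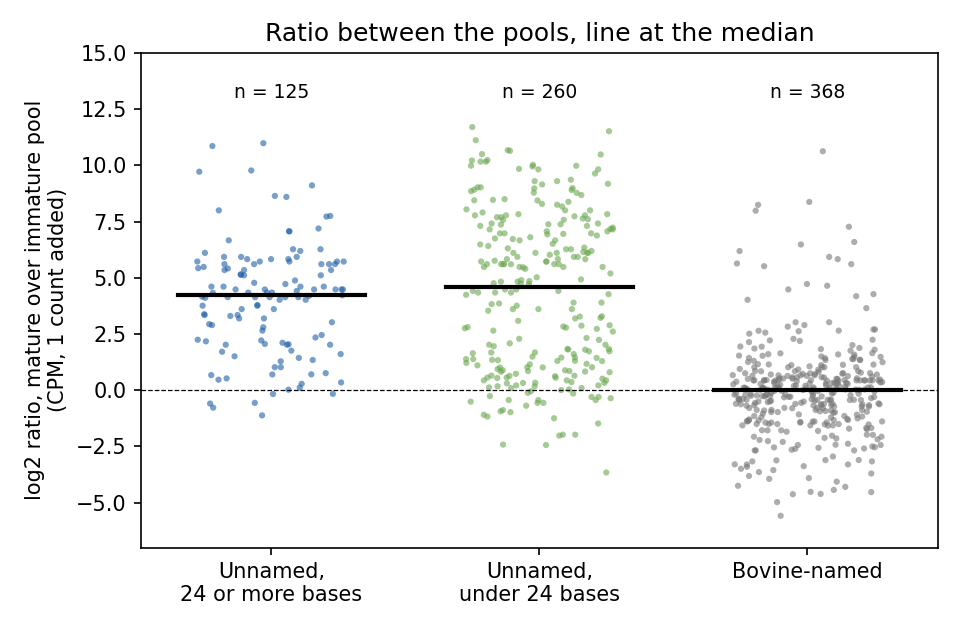
Log2 ratio of the mature over the immature pool for each row with 10 or more counts, by class, with a bar at the median. Medians are 4.23 for unnamed sequences of 24 or more bases (n = 125), 4.60 for shorter unnamed sequences (n = 260) and −0.01 for bovine miRNAs (n = 368).

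Counts were small for most of the sequences, with a median of 16 in the mature pool and 3 in the immature pool, and 66 of the 125 had under 20 counts over both pools. For 25 sequences the immature pool had 0 counts, with 10 to 135 counts in the mature pool, and no sequence was at 0 in the mature pool. A sequence with 0 immature counts passed the count minimum only through the mature pool, so these had to differ. On the CPM scale this reached further. At the minimum, 3 mature and 7 immature counts gave a log2 ratio of 1.02, already over 2-fold. Members with 7 or fewer immature counts were thus bound to be counted as higher. These take in the 71 members with 3 or fewer and further ones with up to 7. Most of the 109 sequences counted as higher were therefore fixed in advance, and that number is not read as a result. A sequence with equal counts in both pools has a log2 ratio of 2.02 on the CPM scale. The exact 95% interval of the count ratio lay above a log2 ratio of 0 for 105 sequences, spanned it for 17 and lay below it for 3. With 10 mature and 0 immature counts the lower bound was already 3.19, so the minimum fixed this for the 25 sequences with 0 immature counts. No share over all rows stands beside these numbers, and they are not read as a result. At the edge of the count minimum, 8 sequences with 10 counts had a median log2 ratio of 3.61, and 19 with 9 counts, just outside, had a median of 4.19.

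Of the 17 sequences with 100 or more counts in a pool, 8 had 2 or fewer counts in the immature pool and 9 had 143 to 1311. The minimum of 100 counts shaped this gap, and sequences just under it lie within it, such as chr6_7787_mature with 78 mature and 15 immature counts and chr10_12916_mature with 76 mature and 76 immature, both named after their values were seen. The 8 sequences held 45.0% of the members' counts in the mature pool. Of these 8 names 7 begin with U, and of the other 9 it is 5.

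chr2_1856_mature was the clearest of the first set, with 1497 counts (1466 CPM) in the mature pool and 2 counts (0.482 CPM) in the immature pool. Its log2 ratio was 10.99 with an interval from 9.72 to 14.62. The star arm chr23_35843_star had 914 counts in the mature pool and 1 in the immature pool, a log2 ratio of 10.86 (9.38 to 17.17). chr21_32348_star followed with 430 mature and 1 immature count. chr13_17957_mature had 414 mature counts and 1 immature count, and its log2 ratio was 9.72 (8.23 to 16.02). chr7_9882_mature, the one of this set that begins with G, had 135 counts in the mature pool and 0 in the immature pool and was at least 183-fold higher than 3 immature counts would give. All 5 thus sit at or near the floor of the immature pool, and their ratios are set by whether the immature pool gave 0, 1 or 2 counts.

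The same 25 bases stood under 3 names on chromosome 14. chr14_20444_mature had 294 mature and 2 immature counts, chr14_20454_mature had 285 mature and 2 immature, and chr14_20480_mature had 158 mature and 2 immature. Their counts differ although their sequences do not, and it is not known whether reads were counted under more than 1 name. The same holds for chr21_30343_mature with 17 mature and 158 immature counts and chr21_30345_mature with 22 mature and 159 immature. In all, 7 members had a sequence identical to another member's, and the 125 names stand for 121 different sequences. With 1 name kept per sequence, 106 were over 2-fold higher in the mature pool and 0 were over 2-fold lower.

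In the second set chr10_13752_mature had 2057 counts (2014 CPM) in the mature pool and 801 counts (193 CPM) in the immature pool, a log2 ratio of 3.38 (3.27 to 3.50). chr1_785_mature, which begins with A, had 319 mature and 300 immature counts, so its log2 ratio of 2.11 (1.88 to 2.34) comes from the table totals alone. Nearly equal counts were also seen for chr29_41290_mature, with 80 in the mature and 78 in the immature pool. chr2_1935_mature had 140 mature and 174 immature counts. These 4 had more CPM in the mature pool, but with the derived clean read totals the ratios of chr1_785_mature (−0.013), chr2_1935_mature (−0.41) and chr29_41290_mature (−0.065) turned.

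The lowest ratios belonged to sequences with more raw counts in the immature pool. chr21_30343_mature was the 1 sequence over 2-fold lower in the mature pool, at 16.6 CPM against 38.0 CPM in the immature pool, with a log2 ratio of −1.12 (−2.01 to −0.47). Its copy chr21_30345_mature was at −0.77 (−1.54 to −0.18), and chr10_13752_star at −0.59 (−0.81 to −0.39). chr18_27210_star, with 52 mature and 240 immature counts, was at −0.16 (−0.64 to 0.26). chr15_21119_mature had 50 mature and 143 immature counts and a log2 ratio of 0.53 (0.01 to 0.98), and chr19_29508_star had 60 mature and 151 immature counts and a log2 ratio of 0.71 (0.24 to 1.13). The ratios of these 2 turned under other scalings, to −0.69 for chr15_21119_mature and −0.51 for chr19_29508_star with TMM factors and to −1.60 and −1.42 with derived clean reads. The sequence of the chr21 pair holds the letters TGATGA, which are those of the C box of C/D small nucleolar RNAs. These letters stood in 5 of the 125 sequences (4%) and in 1.33% of all 3232 rows as listed, and their reverse complement in 0 and 0.155%, which is a description of letters and not of a source.

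Uridine was the first base of 93 of the 125 sequences (74.4%), C of 12, A of 11 and G of 9. The members of 24 and 25 bases carried this share, since U came first in 62.1% of those with 24 bases, 84.1% of those with 25 and 42.9% of the 14 with 26 or more. At positions 2 to 23 the share of U ran from 11.2% to 32.8%. Among unnamed sequences under 24 bases with 10 or more counts, 36.2% began with U, and among bovine miRNAs 41.8%. The 514 unnamed sequences of 24 or more bases that missed the count minimum began with U in 66.9%, with 62.8% at 24 bases and 78.4% at 25 but 26.9% at 26 and 31.8% at 27. Unnamed sequences of 23 bases under the count minimum began with U in 44.0%. The share of U was lower among the more abundant members, at 66.1% of those with 20 or more counts and 57.6% of those with 50 or more.

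Among main arms the share of U was higher at 24 and 25 bases than at 23, and among star arms it was near the same at these lengths. Of the unnamed main arms, 50.6% began with U at 23 bases (n = 89), 81.7% at 24 bases (n = 109) and 86.9% at 25 bases (n = 343). Star arms began with U in 20.8% at 23 bases (n = 53), 20.4% at 24 bases (n = 49) and 22.7% at 25 bases (n = 44). Among members U came first in 81.2% of the 101 main arms and in 45.8% of the 24 star arms, against 23.9% of the star arms of 24 or more bases under 10 counts. The lengths themselves were bounded by the table. Main arms ended at 25 bases, with 343 unnamed ones at that length and 0 above it, whereas star arms reached 30 bases. Of the members 82 had 25 bases, 29 had 24, and 14 had 26 to 29, all of them star arms. Just outside the length limit, 26 unnamed sequences of 23 bases had 10 or more counts. Sequences as long as most piRNAs could therefore be listed here only as star arms, and no source names the limit on the main arms.

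**Figure D3:**
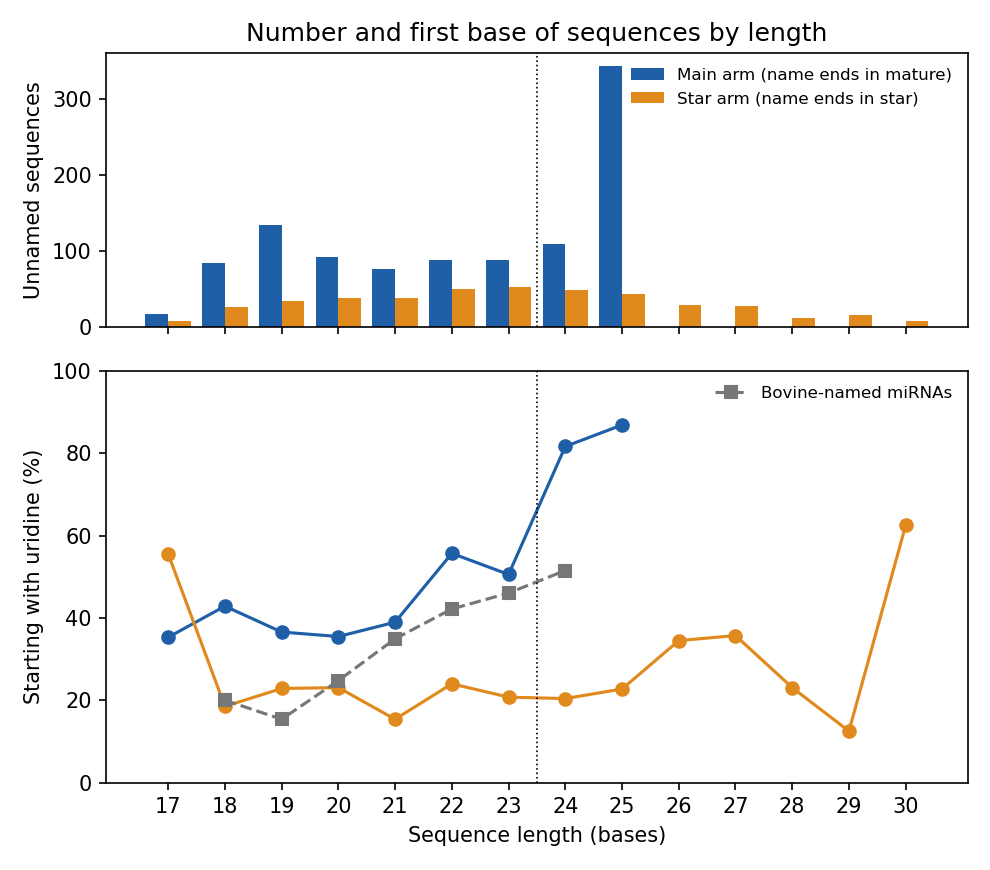
Number of unnamed sequences (upper panel) and the share that begins with uridine (lower panel, %) by sequence length in bases, for main arms (blue), star arms (orange) and, in the lower panel, bovine miRNAs (grey), with lengths of under 8 sequences left out of the shares. The dotted line marks the 24 base limit, at which the share of the main arms goes to 81.7% and then 86.9%, and no main arm is longer than 25 bases.

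Counted by reads, U came first in 86.0% of the members' counts in the mature pool and 71.4% in the immature pool. For bovine miRNAs it came first in 72.1% of the mature and 75.7% of the immature counts. For unnamed sequences under 24 bases these shares were 36.5% and 19.1%. In the immature pool the members' share was thus below that of bovine miRNAs. For members of 26 or more bases the order of the pools turned, at 69.9% in the mature and 95.8% in the immature pool. The arms of chr10_13752, which both begin with U, made up 24.7% of the counts in the mature pool and 48.4% in the immature pool. Without this precursor, a comparison chosen after the values were seen, U came first in 81.4% of the counts in the mature pool and 44.5% in the immature pool. Members that begin with U had a median log2 ratio of 4.48 and those with another first base 2.63. Over 2-fold higher in the mature pool were 85 of 93 and 24 of 32. Members with 7 or fewer immature counts were bound to be counted so, whatever their first base. The immature pool had 0 counts for 20 of the 93 and 5 of the 32, so these numbers do not compare first bases. The median was also 4.48 for main arms and 2.34 for star arms, and main arms begin with U more often. First base was not separated from arm or from the number of immature counts here.

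**Figure D4:**
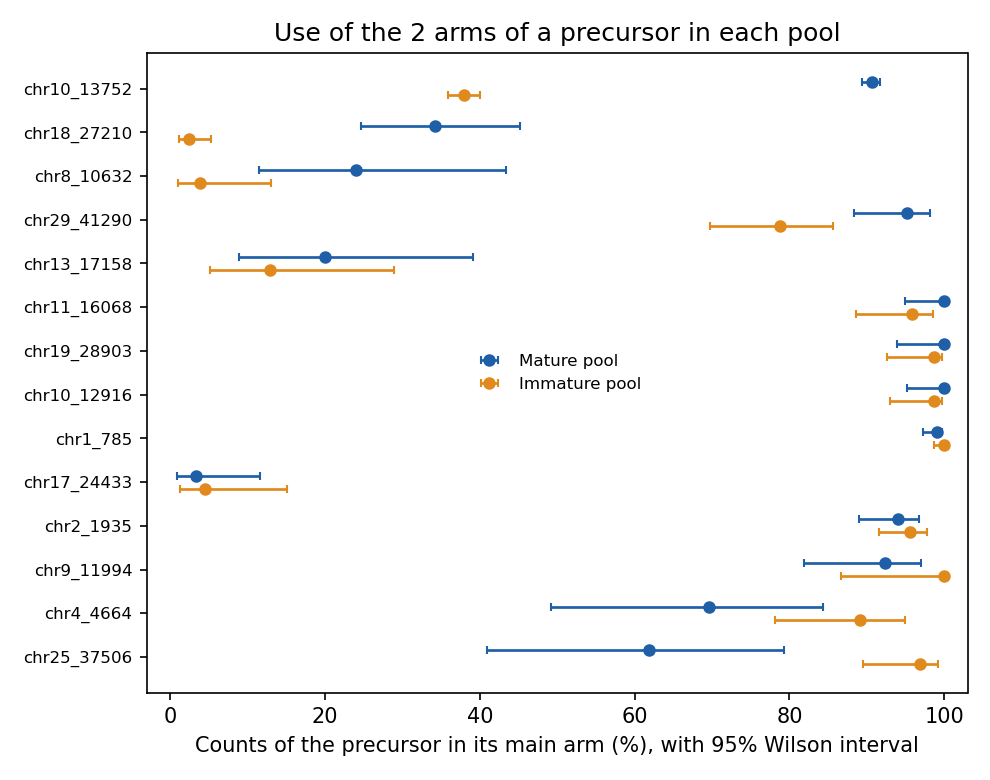
Share of a precursor's counts that fall in its main arm (%), with 95% Wilson intervals for counting error, in the mature pool (blue) and the immature pool (orange), for the 14 precursors of members with 20 or more counts over both arms in each pool. At the top chr10_13752 is at 90.6% in the mature and 37.9% in the immature pool, and at the bottom chr25_37506 is at 61.9% in the mature and 96.9% in the immature pool.

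The use of the arms differed between the pools in some precursors, a comparison that no scaling can change because both arms are counted in the same library. Both arms of chr10_13752 together had nearly the same raw counts, 2270 in the mature and 2112 in the immature pool. The main arm took 90.6% (95% Wilson interval 89.3% to 91.7%) of them in the mature pool and 37.9% (35.9% to 40.0%) in the immature pool. In chr18_27210 the main arm took 34.2% (24.7% to 45.2%) in the mature pool, with 27 of 79 counts, and 2.44% (1.12% to 5.22%) in the immature pool, with 6 of 246. chr29_41290 differed less, at 95.2% (88.4% to 98.1%) in the mature and 78.8% (69.7% to 85.7%) in the immature pool. In the other direction, the main arm of chr25_37506 took 61.9% (40.9% to 79.2%) in the mature and 96.9% (89.5% to 99.2%) in the immature pool. For the remaining 10 of the 14 precursors compared the intervals of the pools overlapped. The 3 higher shares and the 1 lower share rest on 1 library per pool.

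Position 10 and the 5′ overlaps were searched for the features of the ping-pong cycle. A was at position 10 in 32 of the 125 (25.6%), against 26.9% of the shorter unnamed sequences and 25.3% of bovine miRNAs. It was at position 10 in 23.7% of the members that begin with U and in 31.2% of the others. Pairs whose 5′ ends are reverse complements over 10 bases numbered 0, with 12 pairs at 5 bases, 6 at 6, 2 at 7 and 0 at 8 to 20 bases. Over all 639 unnamed sequences of 24 or more bases there were 324 pairs at 5 bases, 80 at 6, 29 at 7, 5 at 8, 0 at 9 and 1 at 10. The table lists 1 consensus sequence per arm of a predicted hairpin, so overlaps between single reads could not be searched.

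Few matches to named miRNAs were found, which can follow from choosing sequences without a miRNA name. None of the 125 shared 18 consecutive bases with a row listed under a bovine, human or mouse name, although 3 names carry a human or mouse miRNA behind the predicted one. Bases 2 to 8, the seed with which a miRNA pairs to its targets, equalled those of a bovine miRNA in 4 of 125 members and in 13 of 260 shorter unnamed sequences. These members were chr1_785_mature with the seed AAGCAGG of bta-miR-2286, chr7_9882_mature with CTCTGTG of bta-miR-2364, chr25_37506_mature with TGACTGT of bta-miR-2380 and chr3_3758_star with CTCACAC of bta-miR-342. They were not all on the same side, since chr7_9882_mature had 135 mature and 0 immature counts and chr3_3758_star 3 mature and 14 immature counts. Members lay on 28 of the 30 chromosomes that had an unnamed sequence, with at most 8 on 1 chromosome and 1 more on a scaffold.

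Genes of the piRNA pathway were mostly higher in mature testis. All 29 genes of a list of PIWI proteins and their partners were tested, and 23 rose, 2 fell and 4 were not called, where 31.7% of 19972 genes tested rose and 30.4% fell. A call needed a Benjamini-Hochberg adjusted p under 0.05 in edgeR's quasi-likelihood test and a log2 fold change of more than 1. The median log2 fold change was 3.75 for the list and −0.04 over all tested genes.

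PIWIL1, the PIWI protein that in mice binds piRNAs of spermatocytes and spermatids, was at 465, 529 and 514 CPM in the 3 mature libraries, against 2.07, 2.72 and 1.59 CPM in the 3 immature libraries. Its log2 fold change was 7.88 (SE 0.20, edgeR adjusted p = 1.91e-08). GTSF1L, a paralog of the PIWI partner GTSF1, rose most, to 302 ± 52.3 CPM in mature against 0.197 ± 0.0634 CPM in immature testis (SD, n = 3 each), with a log2 fold change of 10.52 (SE 0.26). GTSF1 itself rose by 5.45 (SE 0.43), and TDRD5, a Tudor protein needed for pachytene piRNAs in mice, by 6.19 (SE 0.21). FKBP6, a co-chaperone of the pathway in mice, rose by 5.25 (SE 0.24), and PIWIL3, a PIWI protein that mice lack, by 5.21 (SE 0.34). DDX4, the germ cell RNA helicase, was at 406 ± 29.6 CPM in mature and 16.9 ± 4.35 CPM in immature testis, a rise of 4.58 (SE 0.21). PIWIL2 rose by 2.08 (SE 0.25), with 75.8, 76.8 and 81.2 CPM in mature and 11.1, 22.9 and 21.3 CPM in immature libraries.

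The 2 genes that fell were PIWIL4 and MORC1. PIWIL4, a nuclear PIWI protein in mice, was at 2.69, 4.15 and 2.62 CPM in mature and 8.48, 12.2 and 18.4 CPM in immature libraries. Its log2 fold change was −2.04 (SE 0.34, edgeR adjusted p = 0.000565). MORC1 was at 0.875, 2.41 and 2.20 CPM in mature and 6.14, 10.7 and 17.8 CPM in immature libraries, with a log2 fold change of −2.66 (SE 0.49, edgeR adjusted p = 0.00123). The groups did not overlap for any of the 29 genes, those not called included, so this does not set these 2 apart. The share of all tested genes without overlap was not computed, so the count of 29 is not read as a result about the list. The 4 genes not called, named because they were left over, were PNLDC1 (0.69) and HENMT1 (0.65), which in mice trim and methylate the 3′ ends of piRNAs, SPOCD1 (0.52) and TDRD3 (0.48). Their log2 fold changes were under the threshold of 1, with adjusted p of 0.00215 to 0.0444 in edgeR.

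**Figure D5:**
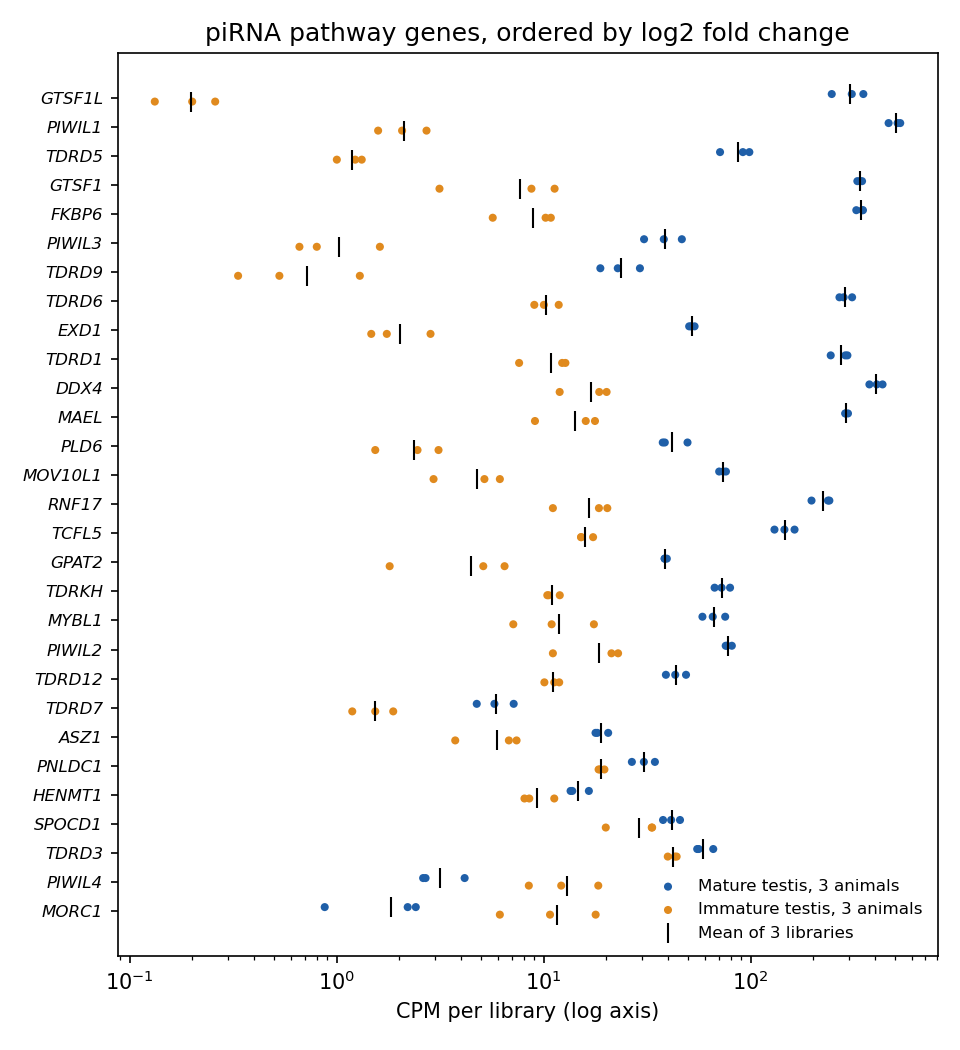
Level of 29 piRNA pathway genes (CPM, log axis) in each of 3 mature (blue) and 3 immature (orange) testis mRNA libraries, with a bar at the mean of 3, ordered by log2 fold change. From GTSF1L (10.52) down to ASZ1 (1.65) the 23 genes that rose have all mature points to the right, and PIWIL4 and MORC1 at the bottom have them to the left.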

How the data were processed

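The study sequenced testis RNA of Chinese Red Steppes cattle in 8 libraries, 2 of small RNA (1 pool of 3 animals per age) and 6 of mRNA. The authors' deposited small RNA and gene tables give raw counts per sequence or gene. The authors aligned small RNA reads to miRBase 21.0 and, with BWA, to Btau_5.0.1, predicted further miRNAs from the aligned reads and mapped the rest to human and mouse miRNAs; mRNA reads were aligned with Hisat2 to Btau_5.0.1. No source used here names the prediction program, mismatch and strand settings, counter or annotation, so counts of overlapping or near-identical genes are uncertain. The authors' comparison tables (EB-Seq fold changes and FDR) were not used.

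Members were rows with no bta-, hsa- or mmu- at the start of the name, 24 or more bases and 10 or more counts. Levels are per 1000000 table counts, log2 ratios add 1 count to each pool, their exact 95% (Clopper-Pearson) intervals use the counts as listed, and a count of 0 was bounded at 3 counts. Members and lists were chosen with earlier results of these data known. Named are the 10 members with the most counts in each pool and, among those with 100 or more counts in a pool, the 5 highest and 5 lowest ratios, with names that share 18 bases with any of these. For the pathway they are the 6 largest changes called, up to 3 called the other way, the PIWI proteins and DDX4. Other names were chosen after their values were seen.

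mRNA counts (14139087 to 15846257 per library) were fitted over all genes with edgeR 4.0.16 in R 4.3.3 (TMM, filterByExpr, robust quasi-likelihood), after tests on simulated data. Of 30983 genes, 19972 passed the filter. Standard errors were taken as the fold change (log2) divided by the root of the F statistic. Small RNAs were analysed in Python 3.11.15 with scipy 1.17.1. Alternatives were other scalings, count and length minimums, 1 name per sequence, DESeq2 1.42.0, no filter, each library left out and a replicate block.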

Additional observations from a re-analysis of the deposited data

How the results depend on the processing

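A scaling moves every small RNA ratio by the same amount. The number lower in the mature pool was 2 without the 10 most abundant rows, 8 with TMM factors and 18 with derived clean reads, 0 with 1 name per sequence and 0 with 26 or more bases. The median log2 ratio was 3.01 with TMM factors, 2.10 with derived clean reads, 2.94 with a minimum of 50 counts and 2.20 with 26 or more bases. The number higher was 49 with a minimum of 20 counts, 24 with 50 and 10 with 26 or more bases, which leave fewer sequences by construction. With 26 or more bases U came first in 42.9% of sequences, the median length was 27, and U came first in 69.9% of counts in the mature and 95.8% in the immature pool. With a minimum of 20 counts U came first in 66.1% of sequences and A was at position 10 in 35.6%, and with 50 counts U came first in 57.6%. With 1 name per sequence U came first in 74.0% of immature counts, and without chr10_13752, added after seeing the data, in 81.4% of mature and 44.5% of immature counts. The share of table counts was 0.832% in the mature and 0.100% in the immature pool with a minimum of 20 counts, 0.775% and 0.0964% with 50, 0.0488% and 0.0406% with 26 or more bases, 0.852% and 0.101% with 1 name per sequence, and 0.676% and 0.0543% without chr10_13752. Of the 18 named sequences, 5 turned direction with derived clean reads (chr1_785_mature −0.013, chr2_1935_mature −0.41, chr29_41290_mature −0.065, chr15_21119_mature −1.60, chr19_29508_star −1.42), and chr15_21119_mature (−0.69) and chr19_29508_star (−0.51) also with TMM factors. For the pathway, each of the 11 alternatives gave 2 genes lower, and all but the one without a fold threshold (27) gave 23 higher. Leaving out each library in turn gave 23 and 2 every time. The replicate block gave 23 and 2 too. The replicate numbers are only names here, since the deviations of same-numbered libraries correlated at −0.03, −0.02 and −0.01. The small RNA pools allowed no paired analysis. Small counts also limit the ratios, since 71 members had 3 or fewer immature counts.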
